A study of Mus musculus with 2 samples.

Results

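Cybb, Cyba, Ncf1, Ncf4, Fpr1 and Fpr2 are 6 of the 32285 genes counted in single cells of 2 mouse pancreatic tumours, and all 6 were found by matching gene symbols. Per the text of the study, both tumours came from mice treated with gemcitabine. The first 4 genes encode subunits of the phagocyte NADPH oxidase and the other 2 encode formyl peptide receptors. As a share of all UMIs (unique molecular identifiers, each standing for 1 captured RNA molecule), neutrophil-like cells of both libraries held more Ncf1, Fpr1 and Fpr2 than macrophage-like cells and less Cybb. Ncf1 was 2.98-fold and 3.50-fold higher, Fpr1 15.5-fold and 14.1-fold higher, Fpr2 5.20-fold and 5.01-fold higher, and Cybb 3.78-fold and 3.39-fold lower. Cyba was 1.86-fold and 1.94-fold lower and Ncf4 1.79-fold higher in each library, both within 2-fold. The lower Cybb and Cyba depend on which cells were compared. With cells gated by marker UMIs in place of clusters, the ratios of neutrophil-like over macrophage-like cells were 0.379 and 0.800 for Cybb and 1.08 and 1.07 for Cyba. Most cells of the macrophage gate lay outside the clustered macrophage-like class, which held only 163 of 431 and 259 of 1807 of them. What cells the rest were was not tested.

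The phagocyte oxidase moves electrons from NADPH across a membrane to oxygen and so makes superoxide, which phagocytes use against microbes and which can also act on neighbouring cells in a tumour. Its catalytic subunit gp91phox (Cybb) and its partner p22phox (Cyba) form a heterodimer in the membrane, while p47phox (Ncf1), p40phox (Ncf4) and further subunits wait in the cytosol and join it, with a Rac GTPase, once the cell is stimulated. Formyl peptide receptors couple to Gi proteins, sense N-formylated peptides from bacteria and damaged mitochondria, and can start both migration and this assembly.

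Both tumours were orthotopic allografts, grown in the pancreas of mice from injected KPC cells, a line of mouse pancreatic cancer. One came from KPC-shV control cells and the other from KPC-shZEB1 cells, which carry a hairpin against Zeb1. The injected cells carry the hairpin, so the neutrophils and macrophages described here come from the host mouse. The text of the study states that the tumours used for single-cell sequencing came from mice treated with gemcitabine. The labels do not mention this treatment and give no age. With 1 library per group there is no replicate check, and mouse, tumour, dissociation, library and group cannot be told apart. After filters 11401 cells remained in the KPC-shV-labelled library and 12130 in the KPC-shZEB1-labelled library, with 101067255 and 119607596 UMIs. Zeb1 in tumour-like cells was at 128.5 and 169 UMIs per 1000000 UMIs of these cells (CPM), a ratio of 1.32 (1.25–1.38), and so was not lower in the KPC-shZEB1-labelled library. The libraries shared 46 cell barcodes before filtering and 36 after it.

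Neutrophil-like cells numbered 6860 (60.2% of cells, 59.3–61.1) and 4320 (35.6%, 34.8–36.5) in the KPC-shV-labelled and KPC-shZEB1-labelled libraries, the order of each pair of values below unless classes are named. Macrophage-like cells numbered 1623 (14.2%) and 2518 (20.8%), monocyte-led cells among them. All 10 neutrophil markers were found in at least 10% of neutrophil-like cells, and their summed level was 38386 and 27743 CPM, against 1811 and 1190 in macrophage-like cells. The 10 macrophage markers summed to 16174 and 24033 in macrophage-like cells, against 998 and 2573 in neutrophil-like cells. Of the 5 eosinophil markers, Epx was at 0 in both classes, and the highest in neutrophil-like cells was Siglecf with 22.1 and 43.2. The 7 acinar markers summed to 67.9 and 470 in neutrophil-like cells. The part of eosinophil and acinar genes in the values below was not tested. The median neutrophil-like cell held 3147.5 and 2910.5 UMIs and the median macrophage-like cell 13258 and 14506, so a level in CPM and a number of UMIs per cell differ in what they compare, and both are given.

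On GRCm38, Cybb (ENSMUSG00000015340) lies at chrX:9435252-9487771 on the minus strand, Cyba (ENSMUSG00000006519) at chr8:122424776-122432930 on the minus strand, Ncf1 (ENSMUSG00000015950) at chr5:134220053-134229625 on the minus strand and Ncf4 (ENSMUSG00000071715) at chr15:78244801-78262580 on the plus strand. Fpr1 (ENSMUSG00000045551) at chr17:17876471-17883940 on the minus strand and Fpr2 (ENSMUSG00000052270) at chr17:17887824-17893952 on the plus strand are neighbours, transcribed away from each other from starts 3884 bases apart. The annotated model of Fpr3 overlaps that of Fpr2 on the same strand, so the split of UMIs between these genes is uncertain. Cyba overlaps Gm20388 and Ncf1 overlaps Gtf2ird2 on the opposite strand, and whether counting used strand is not given in the sources used here. All 6 are protein-coding genes.

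Promoters are shown for the member with the lowest ratio of neutrophil-like over macrophage-like cells (Cybb) and for 3 members higher in neutrophil-like cells, so that the letters of both groups can be read side by side. Each is RefSeq sequence of GRCm38.p6, from 250 bases before the start to 50 after it, 5′ to 3′ on the strand of the gene. RefSeq windows were matched for 5 of the 6 members (not Ncf4). Capitals mark matches on either strand to 4 motifs: GAGGAA, the core bound by PU.1, TTGCNNAA, a form of the C/EBP site, TGANTCA, the AP-1 site, and CCAAT, none of which overlap each other here. Among 32851 promoters of this length, 28.3%, 10.8%, 7.81% and 37.4% hold them.
Cybb, chrX:9469275-9469574, minus strand: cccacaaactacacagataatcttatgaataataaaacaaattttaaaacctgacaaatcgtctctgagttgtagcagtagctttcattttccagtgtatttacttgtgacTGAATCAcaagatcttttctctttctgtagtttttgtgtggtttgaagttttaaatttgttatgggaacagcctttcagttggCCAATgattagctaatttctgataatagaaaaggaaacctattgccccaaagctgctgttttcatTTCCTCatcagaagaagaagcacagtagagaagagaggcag
Ncf1, chr5:134229576-134229875, minus strand: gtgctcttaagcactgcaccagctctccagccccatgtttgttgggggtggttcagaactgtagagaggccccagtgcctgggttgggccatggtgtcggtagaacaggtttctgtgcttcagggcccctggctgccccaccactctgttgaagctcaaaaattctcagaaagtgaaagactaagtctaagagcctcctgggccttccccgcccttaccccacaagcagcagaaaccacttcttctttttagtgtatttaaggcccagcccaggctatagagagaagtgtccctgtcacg
Fpr1, chr17:17883890-17884189, minus strand: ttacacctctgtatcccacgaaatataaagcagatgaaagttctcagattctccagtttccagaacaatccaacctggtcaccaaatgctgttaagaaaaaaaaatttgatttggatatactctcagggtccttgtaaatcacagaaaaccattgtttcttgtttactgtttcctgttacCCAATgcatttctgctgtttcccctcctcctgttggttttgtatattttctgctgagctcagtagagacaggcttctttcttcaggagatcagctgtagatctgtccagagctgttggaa
Fpr2, chr17:17887574-17887873, plus strand: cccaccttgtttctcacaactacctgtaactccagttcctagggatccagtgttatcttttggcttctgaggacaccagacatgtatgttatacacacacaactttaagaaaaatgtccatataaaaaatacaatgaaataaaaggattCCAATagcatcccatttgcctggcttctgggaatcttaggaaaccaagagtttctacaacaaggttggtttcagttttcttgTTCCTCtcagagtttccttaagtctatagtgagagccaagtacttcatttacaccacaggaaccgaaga
The Cybb window holds TGANTCA at -139 and CCAAT at -56 from the start, and GAGGAA on the other strand at 9. The Fpr2 window holds CCAAT at -101 and GAGGAA on the other strand at -19, and the Fpr1 window holds CCAAT at -70. None of the 4 motifs was matched in the windows of Ncf1 and Cyba. The RefSeq start of Cybb used here lies inside the longer annotated gene model given above. These matches describe letters and not binding.

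To describe how neutrophils and macrophages of these tumours differ in the oxidase and the receptors, UMIs were summed over the cells of each class and given in CPM of that class. Parentheses hold 95% exact intervals, and all intervals here cover counting error only, since nothing measures how mice vary. A gene was called at a ratio of at least 2 or at most 1/2, among genes with at least 50 CPM in either class. In the KPC-shV-labelled library, 3 of the 6 members were called higher in neutrophil-like cells, against 16.2% of all 3786 genes, and 1 was called lower, against 32.4%. In the KPC-shZEB1-labelled library, again 3 of 6 were called higher, against 15.6% of 3832 genes, and 1 lower, against 24.3%. The median log2 ratio was 1.21 and 1.32 over the members, beside -0.36 and -0.23 over all these genes. Classes come from clusters of the same cells, and none of the 6 members was used to form them.

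Cybb, the catalytic subunit, was at 237 CPM (230–243) in neutrophil-like and 894 CPM (882–906) in macrophage-like cells of the KPC-shV-labelled library. In the KPC-shZEB1-labelled library it was at 273 CPM (264–282) and 926 CPM (916–935). Macrophage-like cells were the higher class in both libraries, with ratios of neutrophil-like over macrophage-like cells of 0.265 (0.257–0.273) and 0.295 (0.285–0.305). Per cell the gap was wider, with 0.788 and 0.847 UMIs in a neutrophil-like cell against 12.9 and 14.3 in a macrophage-like cell, 16.4-fold and 16.8-fold lower. Free RNA, released by other cells and captured in droplets, can enter the lower of these levels, and whether it did was not tested. The complement genes C1qa, C1qb and C1qc, which mark macrophages, were found in neutrophil-like cells at 5.30% and 10.3% of their macrophage-like level, and at that scale macrophage RNA would give 47.4 and 95.5 CPM of Cybb, or 20.03% and 35.0% of what was seen.

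Cyba, which stabilises the catalytic subunit in the membrane, was at 497 CPM (487–506) in neutrophil-like and 921 CPM (909–934) in macrophage-like cells of the KPC-shV-labelled library. It was at 596 CPM (583–609) and 1153 CPM (1142–1163) in the KPC-shZEB1-labelled library. The ratios of 0.539 (0.527–0.551) and 0.517 (0.505–0.529) were below 1 and just short of the 2-fold limit. A cell held 1.65 and 1.85 UMIs in the neutrophil-like class and 13.3 and 17.8 in the macrophage-like class. Both membrane subunits were lower in clustered neutrophil-like cells on both scales. With cells gated by markers Cyba turned to 1.08 and 1.07, and Cybb in the KPC-shZEB1-labelled library moved to 0.800 and was no longer called. The neutrophil gate held 257 cells there and the macrophage gate 1807. Of these 1807 cells, only 259 were in the clustered macrophage-like class. What cells the rest were was not tested, so the gated ratios may not compare neutrophils with macrophages.

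The cytosolic subunits went the other way in CPM. Ncf1, whose phosphorylation starts assembly, was at 616 CPM (606–626) in neutrophil-like and 207 CPM (201–213) in macrophage-like cells of the KPC-shV-labelled library, and at 719 CPM (704–733) and 205 CPM (201–210) in the KPC-shZEB1-labelled library. The ratios were 2.98 (2.88–3.08) and 3.50 (3.40–3.60). Ncf4, which binds phosphatidylinositol 3-phosphate on the phagosome, was at 202 CPM (196–208) and 113 CPM (109–117) in the first library and at 193 CPM (185–200) and 107 CPM (104–111) in the second. Its ratio was 1.79 (1.71–1.88) in each, above 1 and short of 2, and 2.92 in each with cells gated by markers. Per cell the order of both genes turned, since a macrophage-like cell held more UMIs of all genes. Neutrophil-like cells held 2.05 and 2.23 Ncf1 UMIs against 2.99 and 3.17, and 0.673 and 0.598 Ncf4 UMIs against 1.63 and 1.66.

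The receptors had the largest ratios of the 6. Fpr1, the classical high-affinity receptor for formyl peptides, was at 245 CPM (238–251) in neutrophil-like and 15.7 CPM (14.2–17.4) in macrophage-like cells of the KPC-shV-labelled library. In the KPC-shZEB1-labelled library it was at 169 CPM (162–176) and 12.0 CPM (10.9–13.1). The ratios were 15.5 (14.0–17.3) and 14.1 (12.8–15.7), and Fpr1 was the only member past 2-fold higher per cell as well, with 0.815 and 0.524 UMIs against 0.228 and 0.184. The macrophage-like level may in part be free RNA, which was not tested. S100a8 and S100a9 together stood in macrophage-like cells at 3.83% and 2.76% of their neutrophil-like level, and neutrophil RNA at that scale would give 9.37 and 4.66 CPM of Fpr1, which is 59.5% and 39.0% of the level seen.

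Fpr2, a receptor of lower affinity for formyl peptides that also binds annexin A1 and serum amyloid A, was at 114 CPM (110–119) in neutrophil-like and 22.0 CPM (20.1–23.9) in macrophage-like cells of the KPC-shV-labelled library. The same classes of the KPC-shZEB1-labelled library held 101 CPM (95.7–107) and 20.1 CPM (18.8–21.6). The ratios were 5.20 (4.73–5.72) and 5.01 (4.59–5.48). Per cell Fpr2 was close to even, with 0.380 against 0.318 UMIs and 0.313 against 0.311, ratios of 1.20 (1.09–1.32) and 1.01 (0.923–1.1035). Free neutrophil RNA at the scale above would give 19.9% and 13.8% of its macrophage-like level.

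**Figure D1:**
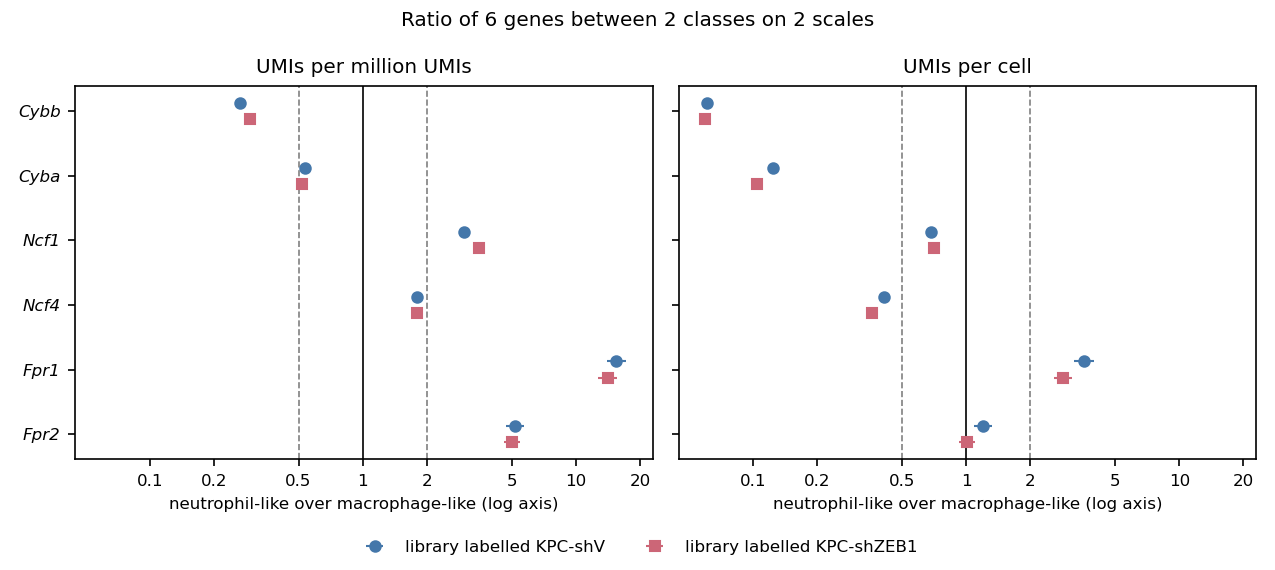
Ratio of neutrophil-like over macrophage-like cells for the 6 genes, in CPM (left) and per cell (right), on log axes; points are the 2 libraries, bars are 95% exact intervals of counting error, and dashed lines mark 2-fold. Ncf1, Ncf4, Fpr1 and Fpr2 lie to the right of 1 on the left, and per cell only Fpr1 stays past 2-fold on the right side, with 3.57 and 2.85.

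Shares of cells with a UMI were compared after each cell was thinned to 1000 UMIs, a depth that every kept cell reached. Cybb was then found in 11.2% (10.5–12.0) and 13.1% (12.1–14.1) of neutrophil-like cells and in 53.6% (51.1–56.1) and 55.8% (53.8–57.7) of macrophage-like cells, and without thinning in 22.2% and 27.5% against 96.7% and 97.1%. Tumour-like cells, whose Cybb did not exceed the C1q-scaled level of free macrophage RNA, showed it in 5.56% and 7.13%. Ncf1 was found in 39.2% and 45.4% of thinned neutrophil-like cells and 20.2% and 18.2% of macrophage-like cells, against 5.36% and 5.52% of tumour-like cells. For Fpr1 the shares were 15.6% and 11.8% against 1.11% (0.659–1.75) and 1.43% (1.00–1.97), with 0.992% (0.477–1.82) and 0.560% (0.226–1.15) of tumour-like cells. The intervals of macrophage-like and tumour-like cells overlapped at this depth. In CPM they did not, with 15.7 (14.2–17.4) against 8.17 (6.96–9.52) and 12.0 (10.9–13.1) against 4.60 (3.84–5.46), and in the macrophage-like cluster led by Lyve1 and Folr2 the thinned share was 1.46% (0.631–2.85) and 2.51% (1.52–3.89). Unthinned, Fpr1 had a UMI in 32.6% and 24.5% of neutrophil-like and 16.6% and 13.3% of macrophage-like cells. Fpr2 was found after thinning in 9.56% and 8.70% against 2.09% and 2.38%, and in 0.794% and 0.721% of tumour-like cells. Median depths before thinning were 17477.5 and 22631 UMIs in tumour-like cells.

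Across the 9 named classes with at least 50 cells in each library, the members fell into different orders. Cybb was highest in macrophage-like cells, and next came B-like cells (259 and 266 CPM), neutrophil-like cells (237 and 273) and dendritic-like cells (204 and 255), whose intervals overlapped with a neighbour except between neutrophil-like and dendritic-like cells of the KPC-shV-labelled library. T-like, NK-like, tumour-like, fibroblast-like and endothelial-like cells held 25.7 to 69.4 CPM of Cybb. In those 5 classes the level that C1q-scaled macrophage RNA would give was 106% to 146% of the level seen. That scale thus exceeds what was counted, and the part of free RNA in it was not tested. B-like and dendritic-like cells stood above that scale, which gave 15.1% to 33.1% of their Cybb.

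Cyba was the most widely spread member. After macrophage-like cells came dendritic-like cells (613 and 793 CPM), neutrophil-like cells (497 and 596), and then NK-like, T-like and B-like cells between 337 and 479 CPM with overlapping intervals. Tumour-like cells held 299.8 and 385 CPM, fibroblast-like cells 205 and 282, and endothelial-like cells 178 and 275. Tumour-like and B-like cells overlapped in the KPC-shV-labelled library, and fibroblast-like and endothelial-like cells in the other. Free macrophage RNA would give 6.36% to 40.8% of Cyba outside the neutrophil-like and macrophage-like classes.

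Ncf1 was highest in neutrophil-like cells, followed by dendritic-like cells with 295 CPM (268–324) and 299 CPM (284–315), macrophage-like cells, and B-like cells with 178 CPM (155–204) and 184 CPM (172–197). The intervals of macrophage-like and B-like cells overlapped in the KPC-shV-labelled library and not in the other. NK-like cells held 79.3 and 85.8 CPM and T-like cells 55.3 and 73.6. The 3 remaining classes lay between 35.9 and 41.7 CPM with overlapping intervals.

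Ncf4 was also highest in neutrophil-like cells and next in macrophage-like cells. NK-like, dendritic-like, T-like and B-like cells followed between 53.2 and 79.9 CPM, each with an interval that overlapped its neighbour's. Tumour-like, fibroblast-like and endothelial-like cells held 7.82 to 15.4 CPM. Lymphoid classes thus held more Ncf4 than the tumour-like class in both libraries.

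Fpr1 and Fpr2 were highest in neutrophil-like cells and next in macrophage-like cells. In the other 7 classes Fpr1 ran from 3.65 to 11.1 CPM and Fpr2 from 2.59 to 12.8 CPM. Neighbours among these 7 had overlapping intervals, and the next class after macrophage-like cells overlapped with them for Fpr1 in the KPC-shV-labelled library. Levels of Fpr1 in these 7 classes were 0.341 to 1.35 times what free neutrophil RNA would give, and the part of such RNA in them was not tested. Dendritic-like cells held 12.8 and 9.41 CPM of Fpr2, 2.32 and 3.57 times that scale, on 19 and 45 UMIs. The rest of these 7 classes ran from 0.735 to 1.79 times and from 1.05 to 2.31 times it. B-like cells were the lowest of them in the KPC-shV-labelled library, on 3 UMIs, and the highest in the other, on 27 UMIs.

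**Figure D2:**
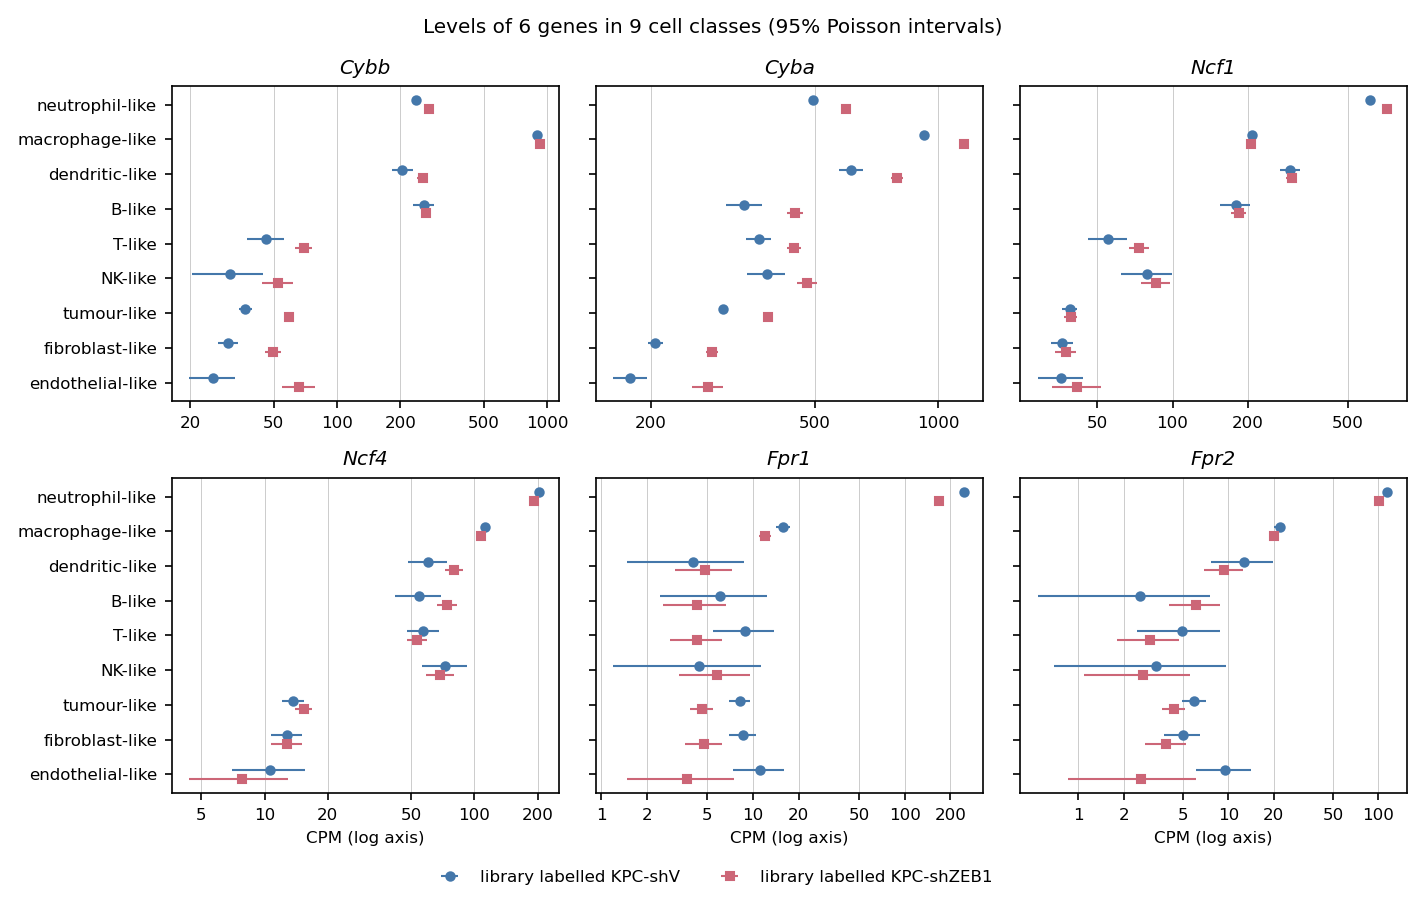
Level of each gene in 9 cell classes, in CPM of the class on log axes that differ between panels; circles are the KPC-shV-labelled library, squares the KPC-shZEB1-labelled library, and bars 95% Poisson intervals. Cybb and Cyba peak in macrophage-like cells, the other members in neutrophil-like cells, and the receptors drop to 12.8 CPM or less outside these classes.

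Neutrophil-like cells fell into 6 clusters, 5 of them with at least 50 cells in each library, named here by leading genes. Fpr1 was highest in the cluster led by Retnlg and Cxcr2, genes of mature blood neutrophils, at 366 CPM (351–382) and 326 CPM (305–348). It was lowest in the cluster led by Siglecf and Abca13, at 103 CPM (93.8–112) and 89.5 CPM (82.7–96.7), a 3.57-fold and 3.64-fold range. The interferon cluster led by Ifit1 and Rsad2 held 346 and 258 CPM, the cluster led by Gm28905 and Echdc3 held 273 and 259, and the cluster with Ero1l among its leading genes, a gene induced by hypoxia, held 176 and 123. Intervals overlapped between the Retnlg and interferon clusters in the KPC-shV-labelled library and between the interferon and Gm28905 clusters in the other.

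Cybb had another order among the same clusters. It was highest in the Gm28905 cluster, at 394 CPM (375–413) and 510 CPM (471–552), and next in the interferon cluster, at 360 and 420 CPM. The 5 cells with the most Cybb held 10.9% and 25.4% of its UMIs in the first and 16.9% and 32.3% in the second. Over the 5 clusters this share ran from 10.9% to 16.9% and from 9.18% to 32.3%, which the intervals do not cover. The Siglecf cluster held 278 and 292 CPM. The Retnlg cluster, which was highest in Fpr1, held 126 CPM (117–135) and 155 CPM (141–170) of Cybb, and the Ero1l cluster 135 CPM (125–145) and 120 CPM (102–139). Both lay below the other 3 clusters in both libraries.

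Ncf1 was highest in the Siglecf cluster, the one lowest in Fpr1, at 857 CPM (832–884) and 836 CPM (815–858). It was lowest in the Ero1l cluster, at 390 CPM (373–407) and 411 CPM (378–446). Fpr2 was highest in the interferon cluster, at 163 CPM (147–179) and 125 CPM (103–151), which overlapped with the Retnlg cluster in both libraries, and lowest in the Ero1l cluster, at 59.2 CPM (52.7–66.2) and 47.1 CPM (36.4–60.1). Cyba and Ncf4 varied less, with 1.24-fold to 1.52-fold between the highest and the lowest cluster. The Ero1l cluster was thus the lowest of the 5 in Cyba, Ncf1 and Fpr2 in both libraries.

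Macrophage-like cells fell into 4 clusters. The cluster led by the monocyte genes Chil3 and Ccr2 was highest in Ncf4, at 157 CPM (147–167) and 144 CPM (136–154), and in Fpr2, at 39.2 CPM (34.4–44.5) and 33.2 CPM (29.0–37.8). The cluster led by Lyve1 and Folr2, genes of resident macrophages, was lowest in Cyba, at 700.25 CPM (679–722) and 840 CPM (820–859), and in Ncf4, at 81.7 and 87.2 CPM. It was highest in Fpr1, at 23.5 CPM (19.7–27.8) and 22.0 CPM (18.9–25.5), still below the 5 neutrophil-like clusters, and overlapped with the monocyte-led cluster in the KPC-shV-labelled library. The cluster led by Mmp12 and Mmp13 was highest in Cyba, at 1020 and 1258 CPM. The cycling cluster, which has Top2a among its leading genes, was lowest in Cybb, at 623 and 647 CPM, while the other 3 lay between 846 and 1044 CPM.

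**Figure D3:**
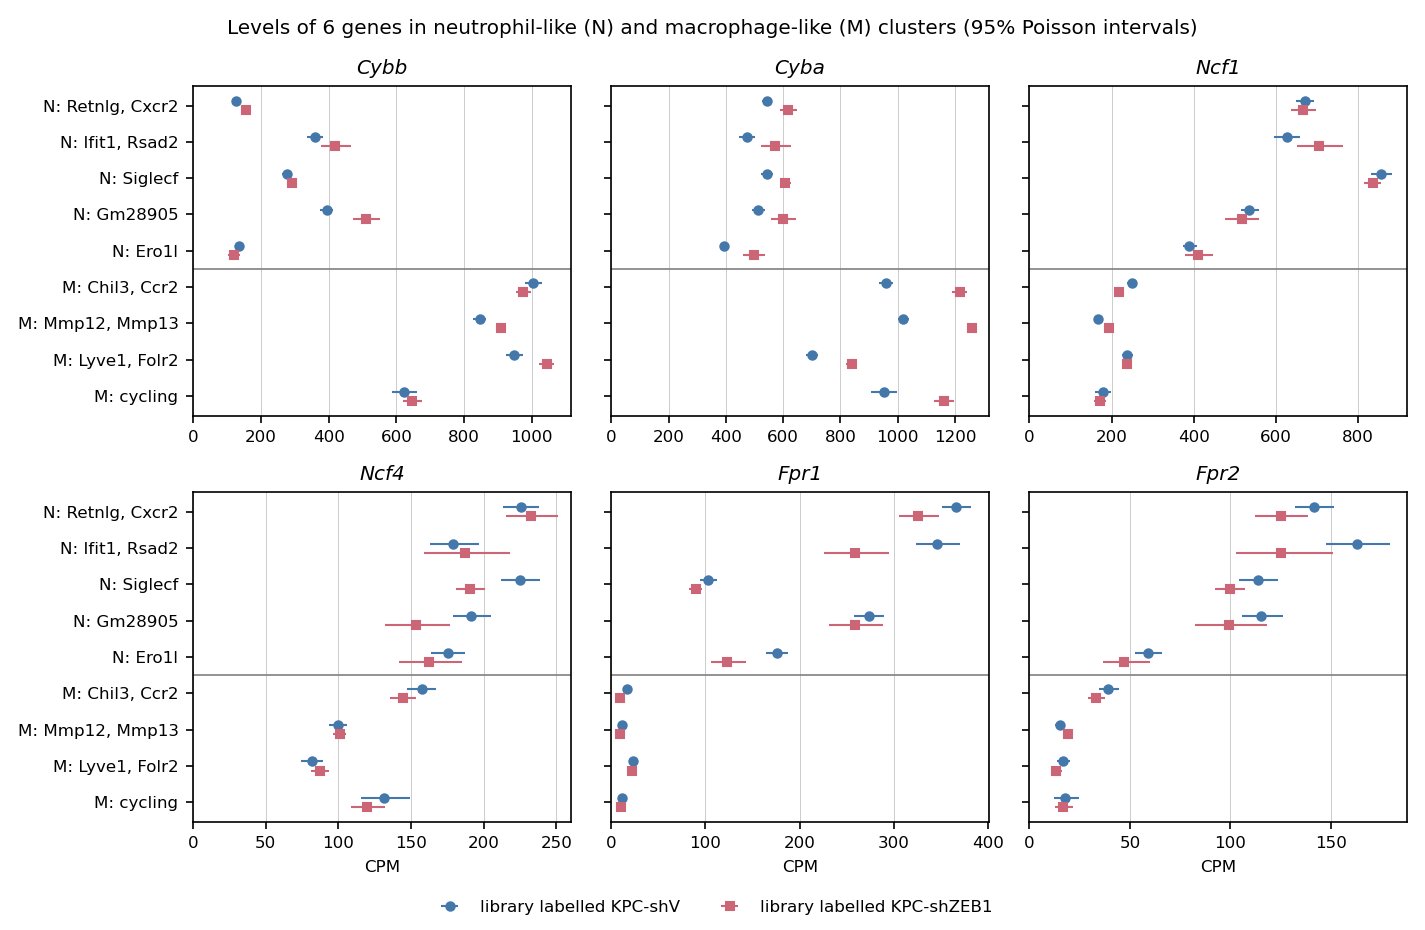
Level of each gene in 5 neutrophil-like and 4 macrophage-like clusters, in CPM on axes that start at 0; points are the 2 libraries and bars 95% Poisson intervals. Fpr1 is lowest and Ncf1 highest in the Siglecf cluster, while Cybb is highest among neutrophil-like clusters in the one led by Gm28905.

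Cybb was spread over neutrophil-like cells in another way than the other members. After thinning to 1000 UMIs, the variance over the mean of its UMIs per cell was 3.90 and 3.93, where counts drawn at 1 common level would give 1. The other members had 1.05 to 1.65 in the same cells, and Cybb itself had 1.45 and 1.53 in macrophage-like cells. Cells with at least 5 Cybb UMIs, a threshold chosen after the values were seen, were 316 of 6860 (4.61%) and 192 of 4320 (4.44%) and held 67.7% and 61.4% of all Cybb UMIs of the class. Up to 46 and 51 UMIs were counted in 1 cell, while 22.2% and 27.5% of cells had any. The 5 cells with the most held 3.79% and 5.58%, so the value of the whole class does not rest on a handful.

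C1q in the Cybb-rich neutrophil-like cells lay within counting error of that in the rest. Their level over that of the remaining neutrophil-like cells was 0.930 (0.785–1.095) and 0.990 (0.875–1.12) for C1qa, 1.13 (0.938–1.34) and 1.03 (0.892–1.19) for C1qb, and 1.04 (0.832–1.29) and 1.13 (0.933–1.35) for C1qc, with intervals that include 1. Csf1r, the receptor of macrophage colony-stimulating factor, had ratios of 1.27 (1.00–1.59) and 0.961 (0.726–1.25). Csf3r, the receptor of granulocyte colony-stimulating factor, was lower in them, at 795 against 1038 CPM and 679 against 929 CPM, yet was found in 86.4% and 83.9% of them. Cxcr2 was also lower, with ratios of 0.715 and 0.764. Other genes of neutrophils went the other way, with ratios of 1.13 and 1.74 for S100a8, 1.02 and 1.28 for S100a9, 4.12 and 6.19 for Ltf and 5.48 and 10.2 for Chil3. Single cells carried much of the last pair, up to 132 of 230 and 145 of 202 Ltf UMIs and 171 of 238 and 125 of 275 Chil3 UMIs. Camp and Ngp, genes of neutrophil granules, had ratios of 318 and 161 and of 101 and 243, on 3 and 5 cells with Camp and 4 and 7 with Ngp. These genes are named after their values were seen. Of the other members, Fpr1 had ratios of 1.43 (1.29–1.57) and 1.25 (1.06–1.47), Ncf1 1.13 and 1.15, Cyba 1.15 and 1.18, and Fpr2 1.32 and 1.26, each with an interval above 1, while Ncf4 had 1.04 (0.915–1.18) and 1.01 (0.853–1.20). Their median depth was somewhat higher, at 3535 against 3135 UMIs and 3372.5 against 2892.5. These cells were selected by Cybb, so no test of them was made.

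**Figure D4:**
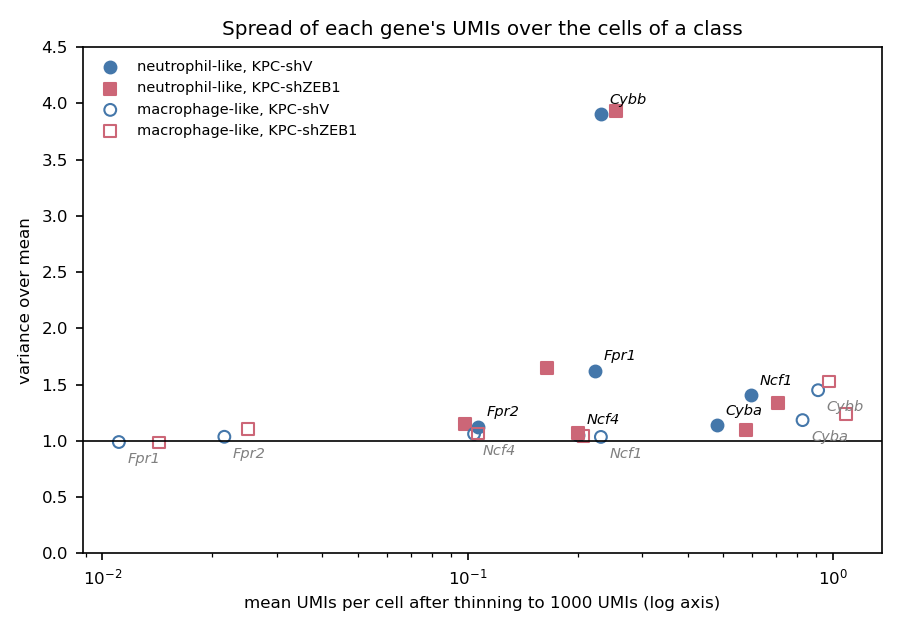
Variance over mean of each gene's UMIs per cell after thinning every cell to 1000 UMIs, against the mean on a log axis; filled symbols are neutrophil-like and open symbols macrophage-like cells, circles the KPC-shV-labelled library and squares the KPC-shZEB1-labelled library. Cybb in neutrophil-like cells stands at 3.90 and 3.93, and the other points lie between 0.986 and 1.65.

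The libraries were then compared within each class. Among neutrophil-like cells, 0 of the 6 members were at least 2-fold higher in the KPC-shZEB1-labelled library, against 2.10% of 3043 genes, and 0 at least 2-fold lower, against 0.592%. Among macrophage-like cells, 0 of the 4 members with at least 50 CPM were at least 2-fold higher, against 0.432% of 3474 genes, and 0 at least 2-fold lower, against 0.115%. No test was possible with 1 library per group, so no count at a p-value stands beside these zeros. The median log2 ratio of all counted genes was 0.10 in neutrophil-like and -0.0079 in macrophage-like cells.

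In neutrophil-like cells Fpr1 had the ratio farthest from 1 among the 6 members. Its ratio of the KPC-shZEB1-labelled library over the KPC-shV-labelled library was 0.691 (0.658–0.726), and 0.644 relative to the shift of all genes. Within the 5 clusters the ratios were 0.701 (0.591–0.826) in the Ero1l cluster, 0.747 (0.641–0.867) in the interferon cluster, 0.873 (0.775–0.983) in the Siglecf cluster, 0.890 (0.823–0.962) in the Retnlg cluster and 0.946 (0.833–1.07) in the Gm28905 cluster. All 5 were below 1 and each was nearer to 1 than the pooled ratio. The Siglecf cluster, lowest in Fpr1, was 21.3% of neutrophil-like cells in the KPC-shV-labelled library and 51.6% in the other, and with the 5 clusters weighted equally, an alternative added after the data were seen, the ratio was 0.835. Ncf1, highest in that cluster, had a pooled ratio of 1.17 (1.14–1.20) and 1.02 with equal weights, and within the 5 clusters it ran from 0.964 to 1.13.

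In macrophage-like cells Fpr1 had a ratio of 0.759 (0.661–0.873) on 464 and 370 UMIs, and it was 1.14 once free neutrophil RNA was subtracted. Fpr1 was lower in the KPC-shZEB1-labelled library in 7 of the 9 classes, with an interval below 1 in 6, from 0.330 in endothelial-like to 1.32 in NK-like cells. Outside the neutrophil-like and macrophage-like classes, Fpr1 was 0.341 to 1.35 times the scale of free neutrophil RNA. The part of such RNA there was not tested. Ratios in those other classes, such as 0.330 on 7 and 28 UMIs, are therefore not read as differences in Fpr1 of their cells. S100a8 and S100a9 together were also lower in the KPC-shZEB1-labelled library, at 24334.5 and 14174 CPM in neutrophil-like cells, and their part in these ratios was not tested. Fpr2 had 0.886 (0.829–0.946) in neutrophil-like and 0.918 (0.820–1.03) in macrophage-like cells, and was lower in 8 of 9 classes.

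Cyba was higher in the KPC-shZEB1-labelled library in 9 of 9 classes, each with an interval above 1, from 1.20 in neutrophil-like to 1.54 in endothelial-like cells, with a median of 1.28. Macrophage-like cells had 1.25 (1.23–1.27). Cybb was also higher in 9 of 9 classes, with an interval above 1 in 8, from 1.02 (0.902–1.17) in B-like to 2.56 (1.88–3.51) in endothelial-like cells, of which 5 cells held 47.6% of the Cybb UMIs in the KPC-shZEB1-labelled library. In 5 of these classes (T-like, NK-like, tumour-like, fibroblast-like and endothelial-like) Cybb did not exceed the scale of free macrophage RNA, whose part was not tested. Their ratios of 1.51 to 2.56 are therefore not read as differences in Cybb of those cells. In the other 4 the ratios ran from 1.02 to 1.25. In neutrophil-like cells its ratio was 1.15 (1.11–1.20), and 0.938 once free macrophage RNA was subtracted. In macrophage-like cells, where the level was highest, it was 1.04 (1.02–1.05). C1q in neutrophil-like cells was at 286 and 785 CPM, so the scale of free macrophage RNA moved with the library. Once free macrophage RNA was subtracted, the Cyba ratio in neutrophil-like cells was 1.06. In endothelial-like cells, which had the highest Cyba ratio, that scale would give 17.0% and 40.8% of Cyba. The part of free macrophage RNA in the Cyba ratios of classes other than neutrophil-like cells was not tested. Ncf4 had 0.954 (0.908–1.00) and 0.952 (0.906–0.999) in the neutrophil-like and macrophage-like classes and was lower in 6 of 9 classes, and Ncf1 in macrophage-like cells had 0.994 (0.959–1.03).

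**Figure D5:**
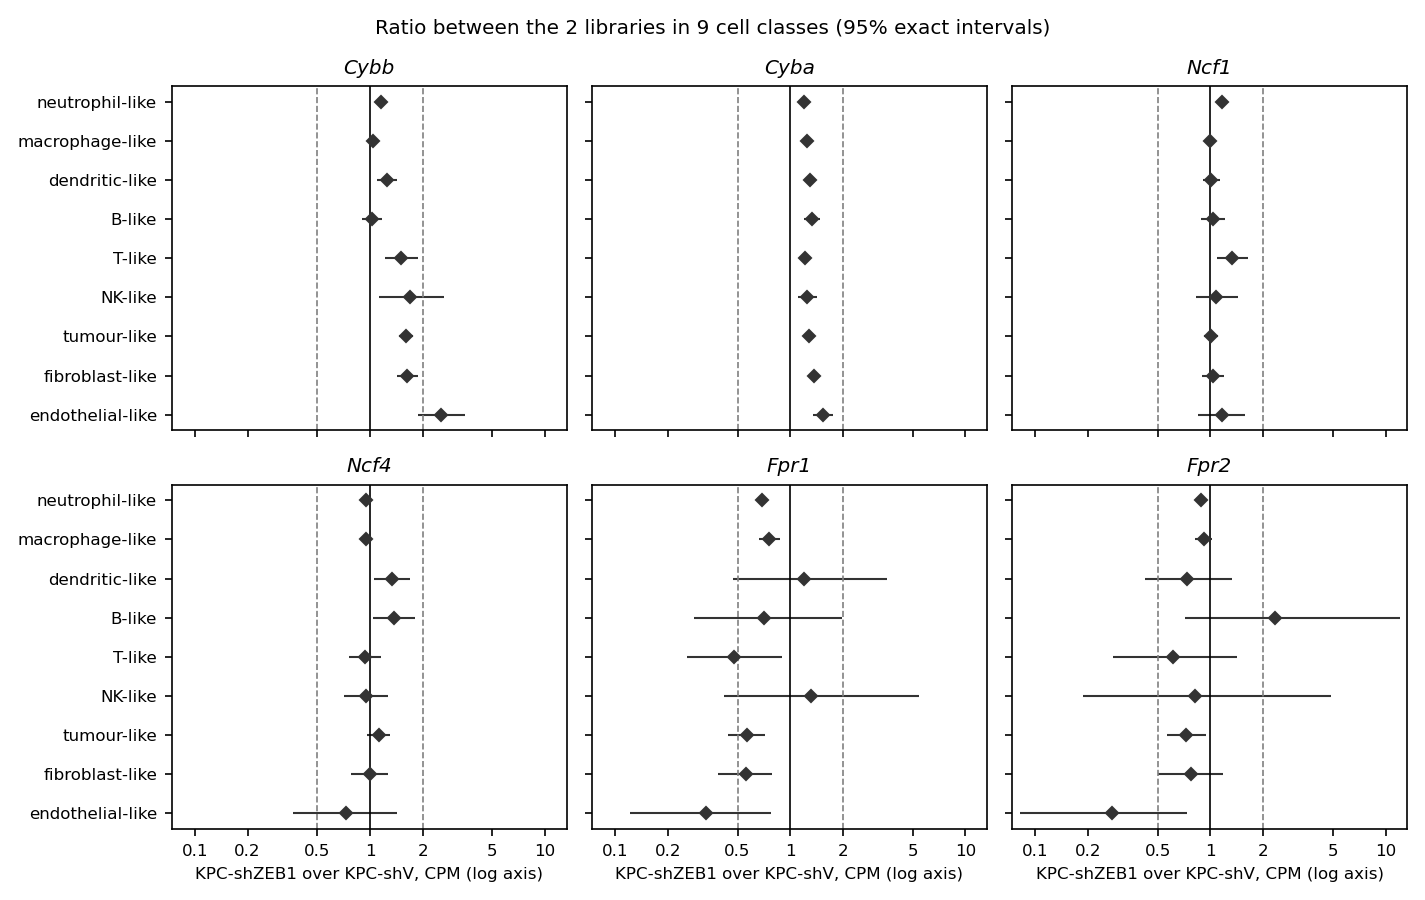
Ratio of the KPC-shZEB1-labelled library over the KPC-shV-labelled library for each gene in 9 classes, on log axes; bars are 95% exact intervals of counting error and dashed lines mark 2-fold. Cyba lies to the right of 1 in every class and Fpr1 to the left of it in 7, while the bars of Fpr1 and Fpr2 are wide outside the neutrophil-like and macrophage-like classes. The part of free neutrophil RNA in Fpr1 outside these classes was not tested.

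Other genes of the pathway were compared between the 2 cell classes by the same rule. Over all counted genes 16.2% and 15.6% were called higher in neutrophil-like cells and 32.4% and 24.3% lower, and the counts below stand beside these shares. Of the 6 oxidase partners, 4 had at least 50 CPM, and of these 0 were higher and 1 lower in the KPC-shV-labelled library, and 1 higher and 1 lower in the KPC-shZEB1-labelled library. Rac1, a GTPase of the complex, had ratios of 1.16 and 1.07. Rac2, the Rac of blood cells and the partner called higher in 1 library, had 1.76 and 2.44, and is named after its values were seen. Rap1a was 2.41-fold and 2.25-fold lower in neutrophil-like cells. None of the 9 other oxidase genes reached 50 CPM, and the 3 with the most UMIs, Nox4, Nox1 and Duox2, lay between 0.255 and 2.19 CPM. Cybb was therefore the only catalytic NADPH oxidase gene of the list at that level in these classes.

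Of the 5 other formyl peptide receptor genes, Fpr3 was the 1 counted and was higher, at 72.1 against 6.85 CPM and 66.3 against 4.07 CPM, 10.5-fold and 16.3-fold. Fpr-rs3, Fpr-rs4, Fpr-rs6 and Fpr-rs7 had 0 UMIs. Of the 6 other chemoattractant receptors with enough CPM, 5 were higher and 1 lower in each library, against 16.2% and 15.6% of all genes higher and 32.4% and 24.3% lower. C5ar1, the receptor of complement C5a, was 2.27-fold and 2.47-fold higher, Ccr1 2.56-fold and 2.67-fold, Ptafr, which binds platelet-activating factor, 3.42-fold and 3.77-fold, Ltb4r1, which binds leukotriene B4, 3.44-fold and 4.90-fold, and Cxcr2 26.2-fold and 32.1-fold. C3ar1, the receptor of C3a, was 17.8-fold and 9.57-fold lower. Cxcr2 is a neutrophil marker and was used to name the class.

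Of the receptor signalling genes 6 of 8 were counted, with 0 higher and 1 lower in each library, against 32.4% and 24.3% of all genes lower. That 1 was Pik3r5, the regulatory subunit of PI3K gamma, 5.97-fold and 3.67-fold lower. Dock2, a Rac activator, had ratios of 1.35 and 1.40, and Gnai2, a Gi subunit, 0.812 and 0.943. Of the NADPH supply genes 5 of 7 were counted, with 0 higher and 3 lower in each library, beside the same shares of all genes. Tkt was 3.94-fold and 2.94-fold lower, Pgls 3.01-fold and 2.15-fold, and Idh1 5.64-fold and 4.29-fold, while Taldo1 had ratios of 0.705 and 0.761 and Pgd 0.744 and 0.791.

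Of the superoxide and peroxide handling genes, 8 of 9 and 7 of 9 were counted, with 0 higher in either library, and 3 and 1 lower. Over all counted genes 32.4% and 24.3% were lower. Prdx1, a peroxiredoxin, was 4.48-fold and 3.94-fold lower. Cat, catalase, and Gpx1, a glutathione peroxidase, were 5.63-fold and 2.69-fold lower in the KPC-shV-labelled library, are named after their values were seen, and in the other library stood at 10.7 against 42.4 CPM and 337 against 549 CPM. Prdx5 and Txn1 had ratios of 1.62 and 1.62 in the KPC-shV-labelled library and 1.37 and 1.35 in the other. Of the 4 ligand genes 2 were counted and neither was called. Saa3, a serum amyloid A, had ratios of 0.593 and 0.568 and Anxa1, annexin A1, 0.798 and 0.898. Between the libraries, 0 genes of these lists were past 2-fold in either class among those counted. Over all genes 2.10% were higher and 0.592% lower in neutrophil-like cells, and 0.432% and 0.115% in macrophage-like cells.

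For each member, the genes most like it in pattern over the 9 classes were ranked by Pearson r of log2(CPM + 1), as a mean of both libraries, among 6723 genes. The points share their libraries and free RNA, and r is given as a description. Nearest to Cybb were Fcgr2b (0.98) and Ctss (0.95), to Cyba Evi2a, Ndufb1-ps and Ucp2 (0.94 to 0.92), and to Ncf1 Snx20, Plek and Il10ra (0.97 to 0.96). Nearest to Ncf4 were Vav1, Cd53 and Zc3h12a (each 0.98), to Fpr1 Fpr3, F630028O10Rik and Mmp9 (each 0.99), and to Fpr2 Trem1, Tarm1 and Tlr13 (each 0.99). Among the members, Fpr1 and Fpr2 had an r of 0.92, Ncf1 and Ncf4 0.89, Cybb and Cyba 0.84, and Cybb and Fpr1 0.37.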

How the data were processed

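The deposited matrices hold UMI counts per gene and cell barcode from 10x 3' libraries, produced by the authors by running Cell Ranger 7.0.1 on mm10, per the labels and the study's methods. The annotation release and strand setting are not given in the sources used here. Of 12594 and 13271 barcodes, 11713 and 12447 cells passed the study's own limits, a minimum of 500 genes, between 1000 and 60000 UMIs, and a mitochondrial share of up to 15%. Scrublet in scanpy 1.11.5 with a score above 0.2 removed 312 and 317 as doublets, since its automatic threshold marked 0 and 301. The filters left 101067255 and 119607596 UMIs, with a median of 3721 and 4260 per cell.

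Both libraries were clustered together without integration (3000 variable genes, 30 components, 20 neighbours, leidenalg 0.10.2 at resolution 1, 31 clusters), with the 6 members, the pathway genes and mitochondrial genes kept out of the variable genes. A cluster was called X-like from at least 3 markers, each in at least 10% of its cells and, in CPM, 3 times above the median over clusters. A Prg4-led cluster with 4 tumour markers and 7 fibroblast markers was left unnamed after its leading genes were seen. Names rebuilt this way may differ from those of the study, which integrated the libraries.

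UMIs were summed by class and library and divided by the class total. Intervals are 95% exact Poisson, Clopper-Pearson or conditional binomial (scipy 1.17.1) and limit precision to counting error. Each group is 1 library, so no test across samples was made. Ratios of at least 2 or at most 1/2 were counted among genes with at least 50 CPM in either group. Of each pathway list, the 3 genes with the most UMIs and those past 2-fold in both libraries were named, with exceptions marked. One gene that this rule names is not reported here. The members, lists and comparisons were chosen with earlier results of these data known. Counting steps were tested on simulated data. Alternatives numbered 12 planned and 2 added after seeing the data.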

Additional observations from a re-analysis of the deposited data

Results flagged for a closer look

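Outside the cell classes, an unnamed cluster led by acinar genes that also held neutrophil markers had 252 cells in the KPC-shZEB1-labelled library, 2.08% of its kept cells (1.83–2.35), against 6 cells or 0.0526% (0.0193–0.115) in the KPC-shV-labelled library. The members were counted there although no comparison above uses these cells. In the KPC-shZEB1-labelled library Cybb stood at 268 CPM (230–309), Cyba at 692 CPM (631–757), Ncf1 at 662 CPM (603–726), Ncf4 at 221 CPM (187–259), Fpr1 at 161 CPM (132–194) and Fpr2 at 80.4 CPM (60.6–105). The interval includes the neutrophil-like level of that library for each member except Cyba, which was at 596 CPM there.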

How the results depend on the processing

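No paired analysis was possible because each group has 1 library. Of the 24 ratios (6 genes, 4 comparisons), all 24 moved by less than their counting interval with a looser cell filter, with each library clustered alone, with no upper UMI limit and without the highest 8% of doublet scores, and 23 did with no doublet removal. With UMIs per cell in place of CPM, 1 member was at least 2-fold higher in neutrophil-like cells and 3 were lower, in each library, and Ncf1 (0.686 and 0.704) and Ncf4 (0.412 and 0.361) turned below 1. With the tumour-like level subtracted, or free RNA of the other class (added after seeing the data), 2 were lower in each library, since Cyba joined Cybb. With cells gated by markers, 0 members were called lower in the KPC-shZEB1-labelled library and Cyba turned to 1.08 and 1.07. Of the cells in the macrophage gate, 163 of 431 and 259 of 1807 were in the clustered class, and what cells the rest were was not tested. Of the cells in the neutrophil gate, 1884 of 1950 and 235 of 257 were in the clustered class. Between libraries, in macrophage-like cells Cybb turned to 0.712 when gated, Ncf4 to 1.01 per cell, 1.01 gated, 1.03 thinned and 1.02 without monocyte-led clusters, and Fpr1 to 1.29 thinned and 1.14 with free RNA subtracted. In neutrophil-like cells Cybb turned to 0.938 with free RNA subtracted. The cause was not tested. Over all alternatives Fpr1 stayed 3.57-fold to 38.2-fold and 2.85-fold to 23.0-fold higher in neutrophil-like cells, and Cybb ratios lay from 0.0609 to 0.379 and 0.0594 to 0.800. Depth limits Fpr1 and Fpr2 outside neutrophil-like cells, where some classes hold under 10 UMIs.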

Other observations

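The members were also counted together in single cells. After thinning to 1000 UMIs, at least 1 of the 4 oxidase genes was found in 70.1% and 76.3% of neutrophil-like cells and in 84.3% and 86.7% of macrophage-like cells of the KPC-shV-labelled and KPC-shZEB1-labelled libraries. At least 1 of the 2 receptors was found in 22.5% and 18.75% of neutrophil-like and 3.14% and 3.81% of macrophage-like cells. Without thinning, all 4 oxidase genes had a UMI in 6.98% and 8.84% of neutrophil-like cells and 58.8% and 61.6% of macrophage-like cells, which are read at several times the depth.

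Fpr1 and Fpr2 were found in the same thinned neutrophil-like cell in 2.68% and 1.78% of cells, where the product of their separate shares is 1.49% and 1.03%. Ncf1 and Ncf4 were found together in 7.81% and 8.15%, with products of 6.95% and 8.01%. Cells of 1 library are not replicates, so no test was made of these differences. Both receptors differed in level between the neutrophil-like clusters, and whether that adds to their shared detection was not tested.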
